A study of Mus musculus with 12 samples.

Results

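Polycomb group genes encode chromatin proteins that keep genes silent, and 10 of them were followed here through the libraries of single mouse oocytes and of oocyte fractions. The 10 genes were Eed, Ezh2, Suz12, Jarid2, Rnf2, Ring1, Pcgf1, Pcgf6, Scml2 and Scmh1, found by their Ensembl identifiers in all 12 count files, out of 55573 genes in each file. Scml2 and Scmh1 were chosen on their measured values, because they moved in opposite directions at 18 cycles, so their values in comparisons that use the 18-cycle whole oocytes or set fractions against low-cycle oocytes are given as a description, with no test. The level of a gene was its share of all gene counts of a library, in CPM, and levels of different genes were compared only per kb of exon length.

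Poly(A) RNA of fully grown mouse oocytes at the germinal vesicle (GV) stage, the arrested stage with an intact nuclear envelope, was sequenced with different PCR cycle numbers and amounts of starting RNA as a check of a spike-in normalisation. All oocytes came from 1 healthy, untreated B6D2F1 female aged 12 weeks and were released into M2 medium with milrinone, which keeps them in arrest. Of the 6 groups of 2 libraries, 3 were whole oocytes amplified for 10, 14 or 18 cycles, and 3 were 1/2, 1/4 or 1/8 of an oocyte lysate, amplified for 18 cycles. The whole-oocyte libraries were 6 separate oocytes, whereas the fractions were dilutions of the lysates of another 2, so the fractions share their oocytes and every p-value measures the spread among libraries of 1 animal. The same amount of ERCC spike-in RNA was added to every sample.

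Library totals ran from 1702062 gene counts in replicate 2 of the 1/8 fraction to 13806199 in replicate 2 at 14 cycles. The whole oocytes at 18 cycles had 3017069 and 1706478 gene counts, against at least 9189672 in each whole oocyte at 10 and 14 cycles. The same pair at 18 cycles had 1611 and 1474 ERCC counts, against 25528 to 39046 in the other 4 whole oocytes. For every ERCC count there were 1873 and 1158 gene counts at 18 cycles, 323 to 360 at 10 and 14 cycles, and 46.5 and 49.3 in the 1/8 fractions. Of the 10 members, 9 had at least 20 counts in every library, the exception being Ring1. Their summed level lay between 2026 and 2772 CPM in each of the 12 libraries.

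The oocyte label was checked against 12 oocyte genes, each with at least 10 counts in every library. Their summed level was 25407 and 22886 CPM at 10 cycles, 25421 and 26633 CPM at 14 cycles and 7514 and 6266 CPM at 18 cycles. In the fractions it was 9504 and 9206 CPM for 1/2, 13608 and 14608 CPM for 1/4, and 20542 and 20952 CPM for 1/8. The sum was thus lowest in the whole oocytes at 18 cycles. The groups that stood apart from 10 and 14 cycles for Eed, Pcgf1 and Scml2 were also low in this sum. Not every marker was low in them. Figla had 76.6 and 29.9 CPM at 18 cycles, 80.0 and 63.4 CPM in 1/2 and 67.8 and 78.4 CPM in 1/4. At 10 and 14 cycles Figla had 46.0 to 52.8 CPM. Zp3 in 1/4, at 2467 and 2784 CPM, lay within its range of 1948 to 2811 CPM at 10 and 14 cycles. The part of the markers in the results for Eed, Pcgf1 and Scml2 was not tested. The most abundant gene of the list was the growth factor gene Gdf9 in 10 libraries and Ooep, of the subcortical maternal complex, in 2. The 10 granulosa and cumulus cell genes summed to 28.1 to 198 CPM, with Nr5a2, Cyp11a1 or Cyp19a1 as the most abundant and 0 to 5 of the 10 without a count. The 6 theca and stroma genes summed to 0.248 to 35.4 CPM, most often with Star at the top. The 6 blood genes summed to at most 5.86 CPM and all 6 were at 0 in 7 libraries. The highest sum of each of these non-oocyte lists was in replicate 1 at 10 cycles. Replicate 2 at 10 cycles had 87.1 CPM for granulosa and cumulus, 4.35 for theca and stroma and 0.218 for blood genes. The part of this difference in the comparisons with 10 cycles was not tested.

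Polycomb proteins work in complexes. PRC2 methylates a lysine of histone H3 through EZH2, with EED and SUZ12 as obligatory partners, and PRC1 adds ubiquitin to histone H2A through RNF2 or RING1, paired with a PCGF protein that sets the type of PRC1. In growing oocytes PRC2 lays down methylation that persists on the maternal genome of the early embryo, and PRC1 silences differentiation genes in the oocyte.

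In the whole oocytes at 10 cycles, the least amplified group, the order of the members by CPM per kb ran from Pcgf1 to Ring1. Pcgf1 stood first at 312 CPM per kb ± 62.0 (SD, n = 2), between the 99.4th and 99.6th percentile of protein-coding genes. Ezh2 followed at 87.4 CPM per kb ± 20.9 (SD, n = 2). Suz12 at 63.1 ± 15.9, Pcgf6 at 59.9 ± 11.1 and Eed at 50.5 ± 2.78 CPM per kb came next, and from Ezh2 to Eed the neighbours in this order overlapped. Rnf2 had 39.7 CPM per kb ± 9.47 (SD, n = 2). Scml2 had 24.1 ± 1.15, Jarid2 19.5 ± 1.18 and Scmh1 12.5 ± 0.415 CPM per kb, without overlap between neighbours. Ring1 was last at 0.247 CPM per kb ± 0.0645 (SD, n = 2), near the 43.3rd percentile, far below its paralog Rnf2, on 11 and 6 counts that do not fix the ratio.

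The 49 genes of a wider Polycomb list gave the members' partners. The highest of them at 10 cycles was AU022751, the mouse gene for the PRC2 inhibitor EZHIP, at 973 CPM per kb ± 64.3 (SD, n = 2), 11.6 times the level of Ezh2. It was followed by the histone-binding PRC2 subunit gene Rbbp7 at 322, the WD-repeat gene Wdr5 at 108, the MBT-repeat gene Sfmbt1 at 77.5 and the PR-DUB subunit gene Asxl1 at 70.8 CPM per kb. Among the genes whose products can fill the PCGF place of PRC1, Pcgf1, Bmi1 at 62.5 and Pcgf6 were high, Pcgf3 had 5.21, Pcgf5 0.665 and Pcgf2 0.0489 CPM per kb. The value of Pcgf2 rested on 4 and 0 counts, too few for a precise level. Of the chromobox genes reported here, Cbx2 had 32.3 CPM per kb, whereas Cbx7 had 0.451, Cbx8 0.327 and Cbx6 0.0691. The last of these rested on 17 and 0 counts. Among the Polyhomeotic genes, Phc2 had 35.4, Phc1 20.99 and Phc3 1.92 CPM per kb. Ezh1, the paralog of Ezh2, had 11.01 CPM per kb. Scml4 and Sfmbt2 had no count at 10 cycles, where a count of 0 allows up to 0.259 and 0.326 CPM (3 counts, counting error only).

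**Figure D1:**
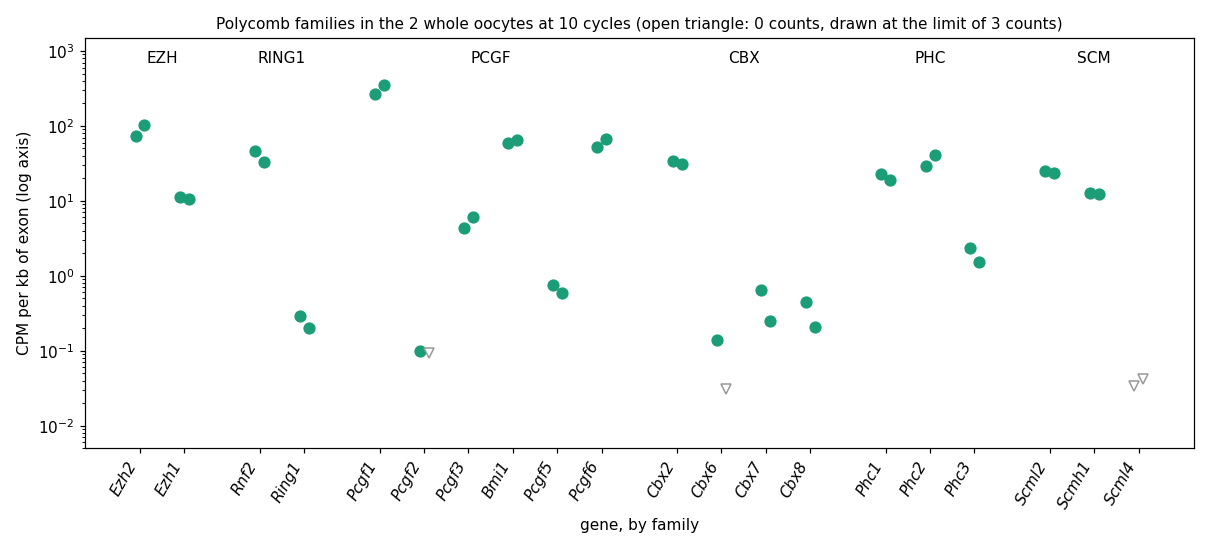
Level of Polycomb genes in the 2 whole oocytes at 10 cycles, in CPM per kb of exon on a log axis, grouped by the complex place their products fill, with 1 point per library. Cbx2 stood at 32.3 CPM per kb and Cbx7 at 0.451, and open triangles mark 0 counts, drawn at the limit of 3 counts.

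Among the PRC2 genes, Eed (ENSMUSG00000030619; GRCm38 chromosome 7, 89954654 to 89980983, minus strand) encodes the subunit that binds methylated histone H3 and stimulates EZH2. Eed stood at 186 and 201 CPM in whole oocytes at 10 cycles, 201 and 189 CPM at 14 cycles, and 515 and 998 CPM at 18 cycles. In the fractions Eed stood at 352 and 549 CPM for 1/2, 419.6 and 274 CPM for 1/4, and 232 and 253 CPM for 1/8. The whole oocytes at 18 cycles and the 1/2 fractions overlapped each other at the top, the 1/4 fractions reached into the range of the 1/2 fractions, the 1/8 fractions lay below them, and all 8 libraries of 18 cycles stood above the 4 whole oocytes of 10 and 14 cycles.

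Ezh2 (ENSMUSG00000029687; GRCm38 chromosome 6, 47530139 to 47595341, minus strand) encodes the methyltransferase. Its level was 485 and 682 CPM at 10 cycles, 452 and 456 CPM at 14 cycles, and 344 and 393 CPM at 18 cycles. The fractions held 496 and 503 CPM of Ezh2 for 1/2, 369 and 403 CPM for 1/4, and 483 and 681 CPM for 1/8. The 1/8 fractions covered the same range as the whole oocytes at 10 cycles, and the lowest values were in the whole oocytes at 18 cycles and the 1/4 fractions, which overlapped. Suz12 (ENSMUSG00000017548; chromosome 11, 79993106 to 80034123, plus strand), which holds PRC2 together, had 257 and 368 CPM at 10 cycles, 223 and 207 CPM at 14 cycles, and 197 and 394 CPM at 18 cycles. Suz12 had 144 and 241 CPM in 1/2, 167 and 161 CPM in 1/4, and 154 and 243 CPM in 1/8. The pair at 18 cycles thus overlapped every other whole oocyte, with the higher value in the same oocyte that was higher for Eed. Jarid2 (ENSMUSG00000038518; chromosome 13, 44729474 to 44921643, plus strand), an accessory subunit that helps PRC2 reach chromatin, had 198 and 182 CPM at 10 cycles, 201 and 211 CPM at 14 cycles, and 164 and 100.2 CPM at 18 cycles. Jarid2 had 108 and 139 CPM in 1/2, 195 and 187 CPM in 1/4, and 136 and 138 CPM in 1/8. The whole oocytes at 18 cycles, the 1/2 and the 1/8 fractions lay below both low-cycle groups, and the 1/4 fractions overlapped the oocytes at 10 cycles.

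Among the PRC1 genes, Pcgf1 (ENSMUSG00000069678; GRCm38 chromosome 6, 83077869 to 83080855, plus strand) encodes the subunit that defines the form of PRC1 holding KDM2B and BCOR. Pcgf1 stood at 442 and 586 CPM at 10 cycles, 473 and 488 CPM at 14 cycles, and 194 and 185 CPM at 18 cycles. It stood at 243 and 168 CPM in 1/2, 173 and 228 CPM in 1/4, and 569.5 and 576 CPM in 1/8. The whole oocytes at 18 cycles and the 1/2 and 1/4 fractions were all low and overlapped one another, apart from every library of 10 and 14 cycles, while the 1/8 fractions lay within the range of the oocytes at 10 cycles.

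Pcgf6 (ENSMUSG00000025050; GRCm38 chromosome 19, 47033617 to 47050906, minus strand) defines the form of PRC1 that holds L3MBTL2, MGA and E2F6. Its level was 262 and 341 CPM at 10 cycles, 268 and 258 CPM at 14 cycles, and 351 and 324 CPM at 18 cycles. In the fractions its level was 593 and 471 CPM for 1/2, 546 and 451 CPM for 1/4, and 340.2 and 341 CPM for 1/8. The 1/2 and 1/4 fractions stood above all other libraries, and the 1/8 fractions overlapped the whole oocytes at 10 and at 18 cycles.

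Rnf2 (ENSMUSG00000026484; chromosome 1, 151458004 to 151500955, minus strand), which encodes the main ubiquitin ligase of PRC1, had 192 and 136 CPM at 10 cycles, 215 and 177 CPM at 14 cycles, and 166 and 183 CPM at 18 cycles. Rnf2 had 147 and 192 CPM in 1/2, 175 and 192 CPM in 1/4, and 198 and 208 CPM in 1/8. Every group overlapped the oocytes at 10 cycles except the 1/8 fractions, which lay just above them. Ring1 (ENSMUSG00000024325; chromosome 17, 34020792 to 34024680, minus strand), the paralog of Rnf2, had 11 and 6 counts at 10 cycles, 10 and 11 at 14 cycles, 15 and 3 at 18 cycles, 0 and 4 in 1/2, 17 and 16 in 1/4, and 4 and 2 in 1/8. In replicate 1 of the 1/2 fraction its count of 0 allows up to 0.745 CPM, and no library held enough Ring1 counts for a precise level.

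The last pair encodes relatives of the fly Sex comb on midleg protein, which carry MBT repeats and a SAM domain. Scml2 (ENSMUSG00000000037; chromosome X, 161117193 to 161258213, plus strand), a germline gene in the mouse, had 151 and 141 CPM at 10 cycles, 164 and 143 CPM at 14 cycles, and 43.1 and 46.3 CPM at 18 cycles. Scml2 had 25.1 and 42.8 CPM in 1/2, 47.4 and 42.4 CPM in 1/4, and 70.7 and 120.4 CPM in 1/8. The whole oocytes at 18 cycles and the 1/2 and 1/4 fractions were low and overlapped in part, and the 1/8 fractions lay between them and the low-cycle oocytes. Scmh1 (ENSMUSG00000000085; chromosome 4, 120405281 to 120530186, plus strand) had 99.0 and 94.5 CPM at 10 cycles, 82.9 and 90.4 CPM at 14 cycles, and 109 and 146 CPM at 18 cycles. Scmh1 had 78.0 and 99.8 CPM in 1/2, 79.2 and 83.8 CPM in 1/4, and 95.4 and 99.9 CPM in 1/8. The whole oocytes at 18 cycles were the high pair, apart from the rest, and the 1/2 fractions overlapped each of the other 4 groups.

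**Figure D2:**
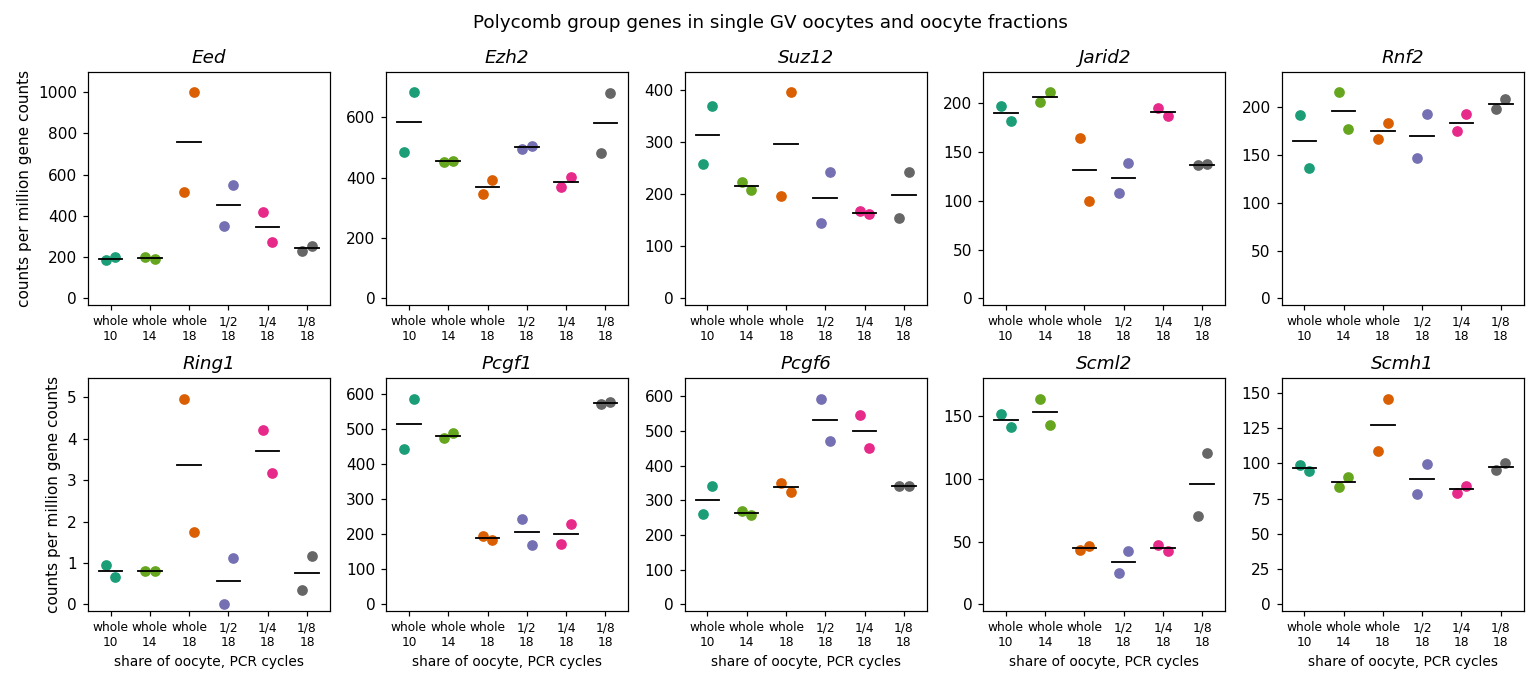
CPM of the 10 members in each of the 12 libraries, with 1 panel per gene, 1 point per library and a bar at the mean of each group of 2. Eed was highest in the whole oocytes at 18 cycles, at 515 and 998 CPM, where Pcgf1 was at 194 and 185 CPM against at least 442 CPM at 10 and 14 cycles.

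The balance of partners was read as ratios of CPM per kb within a library. Eed over Ezh2 was 0.591 ± 0.109 (SD, n = 2) at 10 cycles and 0.750 ± 0.0358 at 14 cycles, and 3.52 ± 1.28 at 18 cycles. In the fractions the same ratio was 1.57 ± 0.469 for 1/2, 1.58 ± 0.565 for 1/4 and 0.743 ± 0.133 for 1/8. Eed thus outweighed Ezh2 in every library of the 18-cycle whole oocytes and of the 1/2 and 1/4 fractions, and in no library of the other groups. Eed over Suz12 was 0.820 ± 0.162 at 10 cycles, 1.17 ± 0.0135 at 14 cycles, 3.33 ± 0.0798 at 18 cycles, 3.05 ± 0.155 for 1/2, 2.72 ± 0.749 for 1/4 and 1.64 ± 0.419 for 1/8. Pcgf1 over Pcgf6 was 5.20 ± 0.0725 at 10 cycles, 5.57 ± 0.276 at 14 cycles, 1.71 ± 0.0351 at 18 cycles, 1.17 ± 0.113 for 1/2, 1.25 ± 0.409 for 1/4 and 5.13 ± 0.0338 for 1/8. By this measure the 1/8 fractions lay beside the low-cycle oocytes and apart from the other libraries of 18 cycles. Scml2 over Scmh1, a ratio of genes chosen on their opposite movement, was 1.92 at 10 cycles, 2.26 at 14 cycles, 0.454 at 18 cycles, 0.477 for 1/2, 0.702 for 1/4 and 1.24 for 1/8. With these ratios the order of the members changed, Eed being first at 18 cycles with 198 CPM per kb ± 89.1 (SD, n = 2) and Pcgf1 being first in the other 5 groups, where its neighbour overlapped it in the 1/2 and 1/4 fractions.

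Between 10 and 14 cycles, the comparison that leaves the input alone and adds a few cycles, no member moved past the threshold. The edgeR quasi-likelihood test was used, with Benjamini-Hochberg adjustment over all genes tested and a threshold of 0.01. It called 0 of 10 members and 0% of 17532 genes. Scml2 and Scmh1 were counted among the 10, although they were chosen for their change from these same oocytes at 10 cycles. The fit also held the more amplified whole oocytes on which they were chosen. For Scml2 and Scmh1 the missing call is therefore no independent result. At an unadjusted p under 0.05 there were 0 members and 513 genes, and DESeq2 called 0 members and 2 genes. The log2 fold changes ran from −0.58 for Suz12 (SE 0.34) to 0.23 for Rnf2 (SE 0.22), with a median over the members of −0.08 beside 0.01 over all genes. Of the 49 wider genes 45 were tested and edgeR called 0, with 3 at an unadjusted p under 0.05 and 0 called by DESeq2.

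Between 10 and 18 cycles Eed rose 4.79-fold and Pcgf1 fell by 1.18 on the log2 scale, the latter a direction that turned with ERCC size factors to a log2 fold change of 1.03 (edgeR adjusted p = 0.0390). With median ratio scaling the median of all genes stood at −0.29 on the log2 scale, with TMM at −0.38 and with ERCC size factors at 1.96, so changes were also read relative to that median. Eed had a log2 fold change of 2.26 (SE 0.32, edgeR adjusted p = 0.000488), with both oocytes at 18 cycles above both at 10 cycles, and stood 2.55 above the median of all genes, or 2.38 above it with ERCC size factors. Pcgf1 had −1.18 (SE 0.22, edgeR adjusted p = 0.00196), with both oocytes at 18 cycles below both at 10 cycles, and stood at −0.89 relative to the median of all genes, or −0.93 with ERCC size factors, which gave 1.03 before that subtraction. Of the 8 members tested 1 was called higher, beside 12.3% of 17532 genes, and 1 lower, beside 10.8%, shares so close to 1 in 8 that the counts are no result about the members. The members' median log2 fold change was 0.29, beside −0.29 over all genes. Without replicate 1 or replicate 2 at 10 cycles the call of Eed was lost (edgeR adjusted p = 0.0145 and 0.0121), and without replicate 2 at 18 cycles its value was 1.63. Pcgf1 lost its call without replicate 2 at 10 cycles (−0.92, edgeR adjusted p = 0.0219), a setting that left 0 members called, while leaving out replicate 1 at 10 cycles left 1. Of all genes 4053 were called in either direction, 1909 without replicate 1 at 10 cycles and 1616 without replicate 2.

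The other tested members did not pass between 10 and 18 cycles with median ratio scaling, and all 6 passed with ERCC size factors, under which the median of all genes stood at 1.96. Ring1 had a log2 fold change of 2.34 (SE 0.84, edgeR adjusted p = 0.0511), on 3 to 15 counts a library, and 4.73 with ERCC size factors (adjusted p = 0.000272). Pcgf6 had 0.42 (SE 0.21, edgeR adjusted p = 0.142), Rnf2 0.37 (SE 0.23, adjusted p = 0.228) and Suz12 0.20 (SE 0.34, adjusted p = 0.663). With ERCC size factors these were 2.64 (edgeR adjusted p = 1.91e-05), 2.60 (1.05e-05) and 2.26 (8.17e-05). Ezh2 had −0.40 (SE 0.24, edgeR adjusted p = 0.217) and, with ERCC size factors, 1.77 (adjusted p = 0.000892). Jarid2 had −0.26 (SE 0.21, edgeR adjusted p = 0.357) and, with ERCC size factors, 2.05 (adjusted p = 0.000372). Scml2, chosen on its value here, had a log2 fold change of −1.45 and, with ERCC size factors, 0.77, which was −1.18 relative to the median of all genes. Scmh1, chosen in the same way, had 0.67, and 0.88 relative to the median with ERCC size factors.

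Against 14 cycles the oocytes at 18 cycles, the same libraries as above, gave Eed 2.28 (SE 0.32, edgeR adjusted p = 0.000453) and Pcgf1 −1.04 (SE 0.22, adjusted p = 0.00387), the latter being 1.21 with ERCC size factors (adjusted p = 0.0159). Both oocytes at 18 cycles stood above both at 14 cycles for Eed and below both for Pcgf1. Of 8 members 1 was called higher, beside 12.5% of genes, and 1 lower, beside 10.7%. Pcgf6 had 0.66 (SE 0.21, edgeR adjusted p = 0.0319; DESeq2 adjusted p = 0.00919), and Suz12 had 0.78 (SE 0.34, edgeR adjusted p = 0.0990; with no filter 0.00384). The call of Pcgf1 was lost without replicate 1 or 2 at 14 cycles or replicate 1 at 18 cycles (edgeR adjusted p = 0.0326, 0.0355 and 0.0148) and leaving out either replicate at 14 cycles left 1 member called. Eed without replicate 2 at 18 cycles stood at 1.66. With replicate 1 at 18 cycles left out Suz12 passed, at 1.28 (edgeR adjusted p = 0.00528). With ERCC size factors Ezh2 at 2.23, Suz12 at 2.89, Jarid2 at 1.98, Rnf2 at 2.36, Ring1 at 4.75 and Pcgf6 at 2.92 passed, beside a median of all genes of 1.97. Of all genes 4072 were called with median ratio scaling, 1851 without replicate 1 at 14 cycles and 1815 without replicate 2.

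Eed was read beside the gene it shares bases with. At its 5′ end Eed overlaps E230029C05Rik (ENSMUSG00000097585; GRCm38 chromosome 7, 89980723 to 90049069, plus strand), annotated as a processed transcript of the opposite strand, over 261 bases or 6.82% of the exon length of Eed. The Nextera kit of these libraries keeps no strand. The study's methods name default counting, which uses the strand, but another HTSeq version than that of the deposited counts. In the deposited files 6.90% to 10.8% of counted reads fell in no feature and 2.64% to 4.53% were ambiguous. To which gene reads of the shared bases were counted was not tested. This neighbour was chosen after its values were seen. E230029C05Rik had 5.43 and 4.79 CPM at 10 cycles, 4.29 and 5.29 CPM at 14 cycles, and 51.0 and 108 CPM at 18 cycles. It had 30.6 and 47.8 CPM in 1/2, 37.5 and 20.8 CPM in 1/4, and 5.44 and 0.588 CPM in 1/8. Its 3 high groups were those of Eed, and in each of them the replicate with more Eed also had more E230029C05Rik. As a description, with no test, its log2 fold change from 10 to 18 cycles was 4.24, and 3.53 without replicate 2 at 18 cycles. The genes that share exon bases with Ezh2, Suz12 and Rnf2, namely Gm26625, Gm26563 and Trmt1l, had log2 fold changes of −0.49, 0.19 and −0.00 in the same comparison and did not pass.

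Of the 49 wider genes 45 were tested between 10 and 18 cycles, 5 being called higher and 4 lower, beside 12.3% and 10.8% of all genes, and their median was −0.28. Among PRC1 genes the ubiquitin ligase partner Rybp had a log2 fold change of 1.64 (edgeR adjusted p = 0.00347), the chromobox gene Cbx2 1.36 (adjusted p = 0.000434), Fbrs 1.17 (adjusted p = 0.00713) and Wdr5 0.82 (adjusted p = 0.00631). Rbbp4, a histone-binding PRC2 subunit gene, had 0.78 (edgeR adjusted p = 0.00948), and lost its call with TMM (0.0149), with a minimum of 10 counts in every library (0.0209) and with all 12 libraries in the fit (0.0136). With that minimum Fbrs (0.0107) and Wdr5 (0.0157) lost theirs too. Of the genes for the 3 partners of PCGF6 named above, L3mbtl2 at −1.17 (edgeR adjusted p = 0.00249) and Mga at −1.05 (adjusted p = 0.00630) were lower, being 1.12 and 1.27 with ERCC size factors, and E2f6 had 1.21 (SE 0.50, adjusted p = 0.0870). Ogt, the O-GlcNAc transferase gene, had −1.66 (edgeR adjusted p = 0.00233) and Sfmbt1 −1.34 (adjusted p = 0.00106), which were 0.72 and 0.83 with ERCC size factors. Cbx2 stood at 144 and 131 CPM at 10 cycles, 160 and 142 CPM at 14 cycles, and 302 and 286 CPM at 18 cycles, without overlap. When each of the 6 whole oocytes was left out in turn, Cbx2 was called every time, whereas the other 8 genes each lost their call at least 2 times. The highest adjusted p for these came without replicate 1 at 10 cycles for Rybp (0.0466), Fbrs (0.0575), Rbbp4 (0.0630) and Ogt (0.0285), and without replicate 2 at 10 cycles for Wdr5 (0.0494), Sfmbt1 (0.0137), L3mbtl2 (0.0219) and Mga (0.0381). Without replicate 1 at 18 cycles Ogt stood at −2.25.

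Against 14 cycles 6 of the 45 wider genes tested were called higher at 18 cycles and 6 lower, beside 12.5% and 10.7% of all genes, with a median of −0.03. The named rises were in Rybp at 1.94, Fbrs at 1.48, Cbx2 at 1.26, the histone H3 demethylase gene Kdm6b at 1.00 and Rbbp4 at 0.81. Kdm6b and Rbbp4 lost their call with TMM (edgeR adjusted p = 0.0104 and 0.0110) and with a minimum of 10 counts in every library (0.0155 and 0.0190). The named falls were in Ogt at −2.07, Phc3 at −1.59, Yaf2, the paralog of Rybp, at −1.44, L3mbtl2 at −1.27 and Mga at −1.18, and with ERCC size factors all 5 had positive values, from 0.29 for Ogt to 1.16 for Mga. Ogt was called without any 1 of the 6 whole oocytes, and the other 9 lost their call without at least 1. Their highest edgeR adjusted p came without replicate 1 at 14 cycles for Kdm6b (0.0639) and Rbbp4 (0.0962), and without replicate 2 at 14 cycles for Rybp (0.0151), Fbrs (0.0317), Cbx2 (0.0186), Phc3 (0.0419), Yaf2 (0.0428), L3mbtl2 (0.0237) and Mga (0.0243). Without replicate 1 at 18 cycles Ogt stood at −2.65 and Phc3 at −2.57.

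The fractions were set against the whole oocytes of 10 and 14 cycles, a comparison in which cycle number and input differ together and cannot be told apart. The 3 comparisons share the same 4 oocytes, and the fractions the same 2 lysates, so their results are not separate observations. In 1/2, Eed had a log2 fold change of 1.46 (SE 0.26, edgeR adjusted p = 0.000139), with both fractions above all 4 oocytes. Pcgf6 had 1.17 in 1/2 (SE 0.20, edgeR adjusted p = 9.04e-05), with both fractions above all 4 oocytes. Pcgf1 had −1.01 in 1/2 (SE 0.22, edgeR adjusted p = 0.00119), with both fractions below all 4 oocytes. In counts per 1000 ERCC counts the group means in 1/2 were 172 for Eed, 211 for Pcgf6 and 82.3 for Pcgf1, which lay on the same sides of the means at 10 and 14 cycles. Of 8 members 2 were called higher, beside 12.3% of 18041 genes, and 1 lower, beside 8.81%, with a median of −0.01 beside −0.29 over all genes. Without replicate 2 of the 1/2 fraction the calls of Eed (1.16, edgeR adjusted p = 0.0118) and Pcgf1 (−0.73, adjusted p = 0.0451) were lost and 1 member was called. Of all genes 3800 were called, and 1828 without replicate 1 of the 1/2 fraction.

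In the 1/4 fractions Eed had 0.98 (SE 0.26, edgeR adjusted p = 0.00768), Pcgf6 0.96 (SE 0.20, adjusted p = 0.00108) and Pcgf1 −1.18 (SE 0.22, adjusted p = 0.000461), with both fractions on the stated side of all 4 oocytes for each. In counts per 1000 ERCC counts Eed had 68.7 in 1/4, beside 66.2 at 10 and 68.3 at 14 cycles, and Pcgf6 had 97.7, beside 104 and 92.1. Pcgf1 had 38.3 on that scale, beside 177 and 168. Ring1 had 2.32 (SE 0.82, edgeR adjusted p = 0.0448), on 6 to 17 counts. Of 8 members 2 were called higher, beside 8.48% of genes, and 1 lower, beside 5.35%, with a median of 0.13 beside −0.18 over all genes. Without replicate 1 of the 1/4 fraction 0 members were called, Eed being 0.57 (edgeR adjusted p = 0.283), Pcgf1 −1.05 (adjusted p = 0.0311) and Pcgf6 0.76 (adjusted p = 0.0635). Eed also lost its call without replicate 1 or 2 at 10 cycles (edgeR adjusted p = 0.0226 and 0.0119) or replicate 1 or 2 at 14 cycles (0.0122 and 0.0176), and with a minimum of 10 counts in every library (0.0102). Of all genes 2496 were called, 858 without replicate 1 of the 1/4 fraction and 1269 without replicate 2.

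In the 1/8 fractions, of 18 cycles, 0 of 8 members and 0% of 18041 genes were called by edgeR against the oocytes of 10 and 14 cycles. At an unadjusted p under 0.05 stood 2866 genes and 1 member, Jarid2, DESeq2 called 190 genes and 0 members, and edgeR with no filter called 236 genes. Eed had a log2 fold change of 0.39 (SE 0.26), Pcgf6 0.34 (SE 0.20), Pcgf1 0.27 (SE 0.21) and Jarid2 −0.45 (SE 0.21). In counts per 1000 ERCC counts these genes had 11.6, 16.3, 27.4 and 6.57 in 1/8, in the same order. On that scale each lay below its means at 10 and 14 cycles. A test that does not pass does not show equal levels, and the number of called genes without 1 library ran from 0 to 14, the highest without replicate 1 of the 1/8 fraction. E230029C05Rik, as a description, had 3.23 in 1/2, 2.699 in 1/4 and −0.21 in 1/8. Scml2, as a description, had −1.90 in 1/2, −1.60 in 1/4 and −0.60 in 1/8, and Scmh1 had 0.21, −0.03 and 0.16.

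Of the wider list 46 genes were tested against the oocytes of 10 and 14 cycles, and in 1/2 edgeR called 3 higher and 7 lower, beside 12.3% and 8.81% of all genes. In 1/4 it called 2 higher and 3 lower, beside 8.48% and 5.35%. In 1/8 edgeR called 0, with 9 at an unadjusted p under 0.05, and DESeq2 called 2. In 1/2 the named rises were Rybp at 1.33, Kdm6b at 0.98 and Fbrs at 0.98. With a minimum of 10 counts in every library Fbrs lost its call (edgeR adjusted p = 0.0102). The named falls in 1/2 were Ogt at −2.47, Mga at −1.61, Phc3 at −1.49, Sfmbt1 at −1.28 and L3mbtl2 at −1.18. Ogt and Mga were called without any 1 of the 12 libraries, and the rest of these lost their call without at least 1. The highest edgeR adjusted p came without replicate 1 of the 1/2 fraction for Kdm6b (0.0248), Fbrs (0.0737), Phc3 (0.0443) and Sfmbt1 (0.0204), and without replicate 2 for Rybp (0.0192) and L3mbtl2 (0.0284). In 1/4 Fbrs at 1.16 and Kdm6b at 1.02 were higher, and Phc3 at −1.45, Sfmbt1 at −1.06 and Asxl1 at −0.89 were lower. In counts per 1000 ERCC counts, Fbrs and Kdm6b in 1/4 overlapped the oocytes of 10 and 14 cycles. On that scale Kdm6b had 116 and 104 in 1/4, beside 100 and 131 at 10 cycles and 95.9 and 99.7 at 14 cycles. Fbrs had 12.4 and 9.01 in 1/4, beside 8.93 and 11.6 at 10 cycles and 9.63 and 7.61 at 14 cycles. Phc3, Sfmbt1 and Asxl1 stayed below all of these oocytes. All 5 lost their call without replicate 1 or replicate 2 of the 1/4 fraction, with adjusted p up to 0.0576 for Fbrs and 0.0152 for Kdm6b without replicate 1, and up to 0.125 for Phc3, 0.0870 for Sfmbt1 and 0.129 for Asxl1 without replicate 2.

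**Figure D3:**
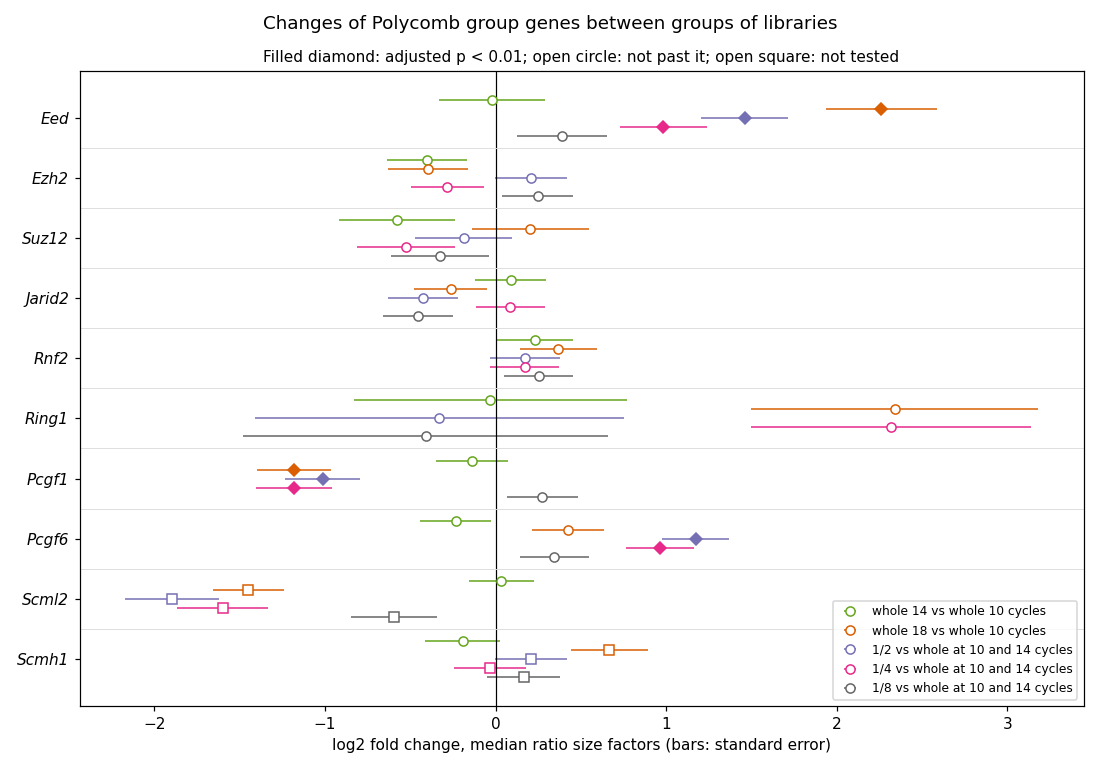
Log2 fold change of the 10 members with median ratio scaling (x axis, bars of 1 SE) for whole oocytes at 14 and 18 cycles against 10 cycles and for the 1/2, 1/4 and 1/8 fractions against whole oocytes at 10 and 14 cycles, with filled diamonds past an adjusted p of 0.01, open circles not past it and open squares not tested. Eed was at 2.26, 1.46 and 0.98 in the 18-cycle oocytes, 1/2 and 1/4, and Pcgf1 at −1.18, −1.01 and −1.18, the first of which was 1.03 with ERCC size factors.

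Against whole oocytes of the same 18 cycles, scaled to the genes' own counts, the 1/2 and 1/4 fractions gave no called member and the 1/8 fractions gave Eed and Pcgf1. In 1/2, edgeR called 0 of 8 members, beside 0.122% of 14788 genes, with 2 members at an unadjusted p under 0.05 and 0 called by DESeq2. In 1/4, edgeR called 0 of 8 members, beside 0.46% of genes, with 2 members at an unadjusted p under 0.05 and 0 called by DESeq2. Eed had a log2 fold change of −0.82 in 1/2 (SE 0.34, edgeR adjusted p = 0.279) and −1.28 in 1/4 (SE 0.34, adjusted p = 0.0634), the latter passing with no filter on counts (adjusted p = 0.00223) and without replicate 1 at 18 cycles (−1.73, adjusted p = 0.00931). The members' medians were −0.11 in 1/2, beside −0.01 over all genes, and −0.07 in 1/4, beside 0.05. Of all genes 18 were called in 1/2, 31 without replicate 1 and 3 without replicate 2 at 18 cycles, and 0 without replicate 1 of the 1/2 or of the 1/8 fraction. In 1/4 they were 68, 104 without replicate 1 and 0 without replicate 2 at 18 cycles, and 18 without either replicate of the 1/4 fraction.

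In 1/8 against whole at 18 cycles, Eed fell by 1.87 on the log2 scale (SE 0.35, edgeR adjusted p = 0.000482), with both fractions below both oocytes. Pcgf1 rose by 1.40 in this median ratio scaling (SE 0.28, edgeR adjusted p = 0.00102), with both fractions above both oocytes, and fell by 3.56 when scaled to ERCC. Of 8 members 1 was called higher, beside 7.06% of 14788 genes, and 1 lower, beside 8.69%, with a median of −0.16 beside 0.03 over all genes. Scml2 had 0.88 and Scmh1 −0.59, as a description. In counts per 1000 ERCC counts Scml2 was lower in 1/8, at 4.54 beside 67.1 in the whole oocytes at 18 cycles. Eed lost its call without replicate 2 at 18 cycles (−1.24, edgeR adjusted p = 0.0140) or replicate 1 of the 1/8 fraction (−1.78, adjusted p = 0.0106), and Pcgf1 without replicate 1 at 18 cycles (1.34, adjusted p = 0.0140), each leaving 1 member called. Of all genes 2329 were called, 1098 without replicate 1 at 18 cycles and 1307 without replicate 2 of the 1/8 fraction. Of the 44 wider genes tested edgeR called 0 in 1/2, with 2 at an unadjusted p under 0.05 and 0 by DESeq2, and 0 in 1/4, with 5 at an unadjusted p under 0.05 and 1 by DESeq2. In 1/8 it called 1, Cbx2 at −1.84 (edgeR adjusted p = 8.85e-05), with 105 and 82.8 CPM in 1/8 against 302 and 286 CPM in the oocytes. Cbx2 was called without any 1 of the 8 libraries.

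The 1/8 fractions were compared with the 1/2 fractions directly, with the same cycle number, so all 10 members were tested. The whole oocytes on which Scml2 and Scmh1 were chosen are on neither side of this comparison, but they were in the fit and entered its scaling and its estimate of the spread. Pcgf1 was 2.48-fold higher in 1/8, with a log2 fold change of 1.31 (SE 0.28, edgeR adjusted p = 0.00384) and both 1/8 fractions above both 1/2 fractions. On the ERCC scale the direction turned, with 82.3 counts per 1000 ERCC counts in 1/2 and 27.4 in 1/8. It was the 1 member called of 10, beside 5.94% of 14788 genes. Scml2 had 1.33 (SE 0.36, edgeR adjusted p = 0.0160), with both 1/8 fractions above both 1/2 fractions. It passed with DESeq2 (adjusted p = 0.00461), with no filter (0.00498) and with a minimum of 10 counts in every library (0.00947). It also passed with a replicate block (edgeR adjusted p = 0.00794) and with all 12 libraries in the fit (0.00474). Each of these fits held the whole oocytes on which Scml2 was chosen, so these p-values are not independent support for it. The direction of Scml2 turned on the ERCC scale too, with 12.9 counts per 1000 ERCC counts in 1/2 and 4.54 in 1/8. Eed had −1.05 (SE 0.34, edgeR adjusted p = 0.0411; with no filter 0.00662) and Pcgf6 −0.81 (SE 0.27, adjusted p = 0.0488), with both 1/8 fractions below both 1/2 fractions for each. The other 6 members lay between −0.12 for Suz12 and 0.10 for Rnf2, and the members' median was −0.02 beside 0.04 over all genes. Pcgf1 lost its call without replicate 1 or 2 of the 1/8 fraction (edgeR adjusted p = 0.0132 and 0.0203) and without replicate 1 or 2 of the 1/2 fraction (0.0146 and 0.0584), while Scml2 passed without replicate 1 of the 1/8 fraction (1.69, adjusted p = 0.00955). Without replicate 2 of the 1/8 fraction or either replicate of the 1/2 fraction 0 members were called. Of all genes 878 were called, 517 and 198 without replicates 1 and 2 of the 1/8 fraction, and 83 and 361 without replicates 1 and 2 of the 1/2 fraction. E230029C05Rik, as a description, had −3.43, and −6.10 without replicate 1 of the 1/8 fraction. Of the 44 wider genes edgeR called 0, with 12 at an unadjusted p under 0.05 and 2 by DESeq2.

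Scaled to the ERCC molecules, which were added in equal amount, the fractions were compared with whole oocytes at 18 cycles for the amount of each transcript. In counts per 1000 ERCC counts, Eed had 965 and 1155 in the whole oocytes at 18 cycles, 155 and 189 in 1/2, 89.9 and 47.6 in 1/4, and 11.4 and 11.8 in 1/8. Pcgf1 had 364 and 214 in these oocytes, 107 and 57.9 in 1/2, 37.0 and 39.6 in 1/4, and 28.1 and 26.8 in 1/8. Both genes fell from group to group without overlap, although the whole oocytes at 10 and 14 cycles, of the same input, held 60.1 to 72.3 for Eed and 143 to 211 for Pcgf1. A fraction that held its share of every transcript would stand at −1, −2 and −3 on the log2 scale for 1/2, 1/4 and 1/8, and the median of all genes stood at −1.997, −2.69 and −4.92.

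Eed had log2 fold changes on the ERCC scale of −2.71 in 1/2 (edgeR adjusted p = 2.31e-05), −3.84 in 1/4 and −6.69 in 1/8. Ezh2 had −1.55 in 1/2 (edgeR adjusted p = 0.00297), −2.78 in 1/4 and −4.48 in 1/8. Suz12 had −2.58, −3.60 and −5.63, Jarid2 −2.21, −2.40 and −5.17, and Rnf2 −2.07, −2.78 and −4.92, in the same order. Pcgf1 had −1.85 in 1/2 (edgeR adjusted p = 0.000799), −2.81 in 1/4 and −3.56 in 1/8, the member with the smallest drop in 1/8. Pcgf6 had −1.33 in 1/2 (edgeR adjusted p = 0.0107, 0.00439 with DESeq2 and 0.00505 with a minimum of 10 counts in every library), −2.29 in 1/4 and −5.15 in 1/8. Ring1, on 0 to 17 counts, was called lower in 1/2 and 1/8 by edgeR, and its fold is not given. In 1/4 Ring1 was not called, but it passed in some of the settings that left out 1 library. In total 7 of 8 members were called lower in 1/2, beside 52% of 14788 genes, 7 of 8 in 1/4, beside 69.7%, and 8 of 8 in 1/8, beside 87.5%, and their medians of −2.14, −2.80 and −5.16 lay near those of all genes.

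On the ERCC scale 3 members were called in 1/2 without replicate 1 of the whole oocytes at 18 cycles, and 3 without replicate 2 of the 1/2 fraction. The genes called in 1/2, 7697 in all, were 3081 and 1930 in these settings, and those called in 1/4 fell from 10301 to 6703 without replicate 2 of the 1/4 fraction. Ezh2 lost its call in both settings (edgeR adjusted p = 0.0396 and 0.0574), as did Jarid2 (0.0323 and 0.0108) and Pcgf1 (0.0237 and 0.0434), while Rnf2 lost it in the latter (0.0109) and Ring1 in the former (0.123) or without replicate 1 of the 1/2 fraction (0.0174). Pcgf6 passed in 1/2 without replicate 2 at 18 cycles (edgeR adjusted p = 0.00107) or replicate 1 of the 1/2 fraction (0.00997). Jarid2 was −1.27 in 1/2, −1.49 in 1/4 and −4.26 in 1/8 without replicate 1 at 18 cycles, and −2.79 in 1/2 without replicate 2. Eed in 1/4 without replicate 1 of that fraction was −4.40, and Pcgf1 in 1/2 without replicate 1 of that fraction was −2.48. Of the 44 wider genes tested, 32 were called lower in 1/2, 40 in 1/4 and 43 in 1/8, beside 52%, 69.7% and 87.5% of all genes, with medians of −2.09, −2.68 and −4.83. Among those called with a mean of at least 50 normalised counts and no overlap, the largest falls in 1/2 were Cbx2 at −2.80, Wdr5 at −2.74, Ogt at −2.73, Mga at −2.58 and Bap1 at −2.57. Without replicate 1 at 18 cycles Ogt (−1.47, edgeR adjusted p = 0.0323) and Mga (−1.50, adjusted p = 0.0217) lost their call in 1/2. With the same limits they were, in 1/4, Rybp at −4.14, Wdr5 at −3.38, Cbx2 at −3.36, Rbbp4 at −3.33 and Pcgf5 at −3.23, and in 1/8 Cbx2 at −6.79, E2f6 at −6.23, Fbrs and Rybp at −6.10 each and Auts2 at −5.76. None of the 10 named in 1/4 and 1/8 lost its call without any 1 of the 8 libraries, and E2f6, on 13 and 16 counts in 1/8, was −5.15 without replicate 1 of that fraction and −8.13 without replicate 2. Without replicate 1 at 18 cycles Rbbp4 was −2.68 and Pcgf5 −2.61 in 1/4, and Auts2 −5.09 in 1/8.

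What the members shared outside expression was limited. They lie on 9 chromosomes, with Ezh2 and Pcgf1 both on chromosome 6, and their exon lengths run from 1649 bases for Pcgf1 to 9715 bases for Jarid2. The GC content of the longest annotated transcript of each runs from 39.5% for Rnf2 to 56.9% for Ring1. It is 47.8% for Eed and 50.9% for Pcgf1, beside a median of 49.0% over the tested genes. Across 17513 genes, which share libraries and are not independent replicates, the Spearman correlation of GC content with the log2 fold change was 0.37 from 10 to 18 cycles, and across 14776 genes it was −0.40 in 1/8 against whole oocytes at 18 cycles. The part of GC content in the results was not tested.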

How the data were processed

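Per the labels, the authors trimmed reads (cutadapt 2.5), aligned them (STAR 2.7.2a, mm10) and deposited raw HTSeq 0.9.1 counts per gene and ERCC molecule, with no normalisation. The study's methods name other versions of these tools. Of each library, 6.90% to 10.8% of counted reads fell in no feature. The members and gene lists were chosen with earlier results of these data known. Genes were matched by Ensembl identifier to GENCODE M21 (GRCm38, 55480 of 55573). Levels are CPM over gene counts, per kb of merged exon length where genes are compared.

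Tests used edgeR 4.0.16 quasi-likelihood in R 4.3.3, with median ratio or ERCC size factors, at least 5 counts in at least 2 libraries, Benjamini-Hochberg adjustment over all genes tested and a threshold of 0.01. Fits held the 6 whole oocytes, the 8 libraries of 18 cycles, or all 12 for the fractions against 10 and 14 cycles. Scml2 and Scmh1 were not tested where they were chosen or where fractions met low-cycle oocytes. All members are named. Of the 49 wider genes, the up to 5 largest rises and falls of each comparison were named among those called, with a mean of at least 50 normalised counts and no overlap between groups, plus the 5 highest per kb at 10 cycles. The levels of 1 wider gene are not reported here. Markers were 12 oocyte, 10 granulosa, 6 theca and stroma and 6 blood genes. The steps were tested on simulated data. Alternatives were DESeq2 1.42.0, TMM, ERCC size factors for the cycle numbers, total ERCC counts, a filter of 1 count or a stricter one of 10 counts in each library, a replicate block, 1 fit of all libraries, levels by size factors or without the 100 most abundant genes, and leaving out each library, where a lone library is taken to vary like the other groups.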

Additional observations from a re-analysis of the deposited data

How the results depend on the processing

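Over the members, the named wider genes and the neighbour of Eed, 2160 of 2334 gene values under an alternative kept their side of the threshold, 129 lost their call, 31 gained one and 14 turned. Of the 2160, 55 changed sign without a call on either side. All 14 turned with ERCC size factors, under which the median of all genes was 1.96 from 10 and 1.97 from 14 to 18 cycles: from 10 to 18 cycles Ezh2 was 1.77, Jarid2 2.05, Pcgf1 1.03, Ogt 0.72, Sfmbt1 0.83, L3mbtl2 1.12 and Mga 1.27, and from 14 to 18 cycles Jarid2 was 1.98, Pcgf1 1.21, Ogt 0.29, Phc3 0.75, Yaf2 0.80, L3mbtl2 1.05 and Mga 1.16. With those factors 7 of the 8 members tested were called in each of these comparisons, beside 8348 and 8400 genes. Without a filter Suz12 was called for 18 against 14 cycles, 1 member was called in 1/4 against whole oocytes at 18 cycles, and 3 in 1/8 against 1/2. In 1/8 against 1/2, 2 members were called with DESeq2, at least 10 counts in every library or all 12 libraries in 1 fit, and 2 with the replicate block, which added Scml2 (adjusted p = 0.00794) and, in 1/2 on the ERCC scale, Pcgf6 (0.000342) and took the call of Rbbp4 for 18 against 10 cycles (0.0105), although same-numbered libraries did not deviate together (correlations of −0.143 to 0.151). Why these counts differ was not tested. When each library was left out in turn, the members called ran from 0 to 2 for 18 against 10 cycles, 1 to 2 for 18 against 14 cycles, 0 to 1 for 1/4 and 1 to 2 for 1/8 against whole oocytes at 18 cycles, 0 to 1 for 1/8 against 1/2, 3 to 8 for 1/2 on the ERCC scale, and, against 10 and 14 cycles, 1 to 3 for 1/2 and 0 to 3 for 1/4. All-gene counts ran from 1616 (without replicate 2 at 10 cycles) to 4007 for 18 against 10 cycles, 1815 (without replicate 2 at 14 cycles) to 3958 for 18 against 14 cycles, 0 to 31 for 1/2, 0 to 104 for 1/4 and 1098 (without replicate 1 at 18 cycles) to 2133 for 1/8 against whole oocytes at 18 cycles, and 83 (without replicate 1 of 1/2) to 921 for 1/8 against 1/2. They ran from 1930 to 8908 for 1/2, 6703 to 10592 for 1/4 and 11080 to 12881 for 1/8 on the ERCC scale, and from 1828 to 4252, 858 to 2914 and 0 to 14 for the fractions against 10 and 14 cycles. Against whole oocytes at 18 cycles edgeR called 18 genes in 1/2, beside 152 with DESeq2, 218 with no filter, 73 with the replicate block, 50 with all 12 libraries and 1 with TMM, and 68 in 1/4, beside 241, 205, 126, 117 and 64 in the same order. In 1/8 against 1/2 it called 878, beside 1448 with DESeq2, 1340 with no filter and 1460 with all 12 libraries. In 1/8 against 10 and 14 cycles it called 0, beside 190 with DESeq2 and 236 with no filter, and from 10 to 14 cycles 0, beside 2 and 9. On the ERCC scale it called 12937 in 1/8, and 8329 of fewer genes with at least 10 counts in every library. Of 120 recomputed group levels of the members, 66 moved by more than the SD of the 2 replicates, and without the 100 most abundant genes in the total all levels averaged 1.23 times the CPM. The low depth of the whole oocytes at 18 cycles and of Ring1 limits what their comparisons can show.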
